A study of Mus musculus with 9 samples.

Results

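The 9 genes described here encode tight junction proteins of the hepatocyte: the claudins Cldn1, Cldn2, Cldn3, Cldn12 and Cldn14, occludin (Ocln), the junctional adhesion molecule F11r, and the scaffolds Tjp1 and Tjp3. They were taken by symbol from a table of 57010 genes, and all 9 passed the filter on low counts that left 13686 genes. Bulk RNA of liver from male BALB/c mice was sequenced in 3 libraries of each of 3 groups. The AT3 and CPT livers carry the same treatment label, a cisplatin-induced acute liver injury, and the CON livers are labelled as given no treatment. The labels do not spell out AT3, and the series title names atractylenolide III. The design text states only that male BALB/c mice were injected with a solution it calls DDP, without saying which groups received it. The sources used here do not state dose, route, time or the age of the mice. Nothing in the labels says that each library came from a separate mouse, so the p-values below rest on the spread between libraries, which may be technical.

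Tight junctions join neighbouring hepatocytes around the bile canaliculus and keep bile apart from blood. Claudins form the seal itself, and the mix of claudins sets which ions and water can pass between cells: claudin-1 and claudin-3 are sealing claudins, whereas claudin-2 forms a pore for small cations and water. Occludin and F11r (JAM-A) span the membrane beside them, and the zonula occludens proteins ZO-1 (Tjp1) and ZO-3 (Tjp3) hold the complex to actin beneath the membrane.

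The libraries held between 21485000 and 28480500 estimated counts. Levels between libraries are given as CPM, counts divided by a library size that was scaled by the trimmed mean of M-values (TMM). Levels between genes are given as the deposited TPM, which also divides by transcript length. The share of counts from mitochondrially encoded genes was 9.79% to 11.4% in AT3, 11.2% to 16.3% in CPT and 25.8% to 36.8% in CON libraries, so it moved with the groups, and its part in the results was not tested. Hepatocyte markers summed to 102837 to 110913 CPM in AT3, 70268 to 91037 CPM in CPT and 79329 to 83534 CPM in CON, at levels that place hepatocytes in every library. Of the 12 hepatocyte markers 6 were higher and 3 lower in CPT against CON, beside 30% and 30.8% of all tested genes. In bulk tissue, fewer cells of a type and less RNA per cell cannot be told apart.

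With all 9 genes measured, 8 differed between CPT and CON livers at an edgeR adjusted p under 0.05: Cldn2, Cldn14, F11r and Tjp1 were higher and Cldn1, Cldn3, Ocln and Tjp3 were lower, Ocln on counts but not on TPM. Between AT3 and CON livers the same 8 genes and Cldn12 were called, 5 of the 9 higher and 4 lower. None of the 9 was called between AT3 and CPT livers. Such calls were common in these data: 30% of all tested genes were called higher and 30.8% lower in CPT against CON, 31.5% and 32.9% in AT3 against CON, and 2.46% and 2.22% in AT3 against CPT. In either direction, 8 of the 9 genes were called in CPT against CON beside 60.8% of all tested genes, 9 of the 9 in AT3 against CON beside 64.4%, and 0 of the 9 in AT3 against CPT beside 4.68%. Libraries of the compared groups did not overlap for 7 of the 9 genes in CPT against CON (64.2% of all tested genes), for 9 in AT3 against CON (70.3%) and for 3 in AT3 against CPT (27%). The median log2 fold change of the 9 genes was 0.12 in CPT against CON, 0.06 in AT3 against CPT and 0.35 in AT3 against CON, beside -0.02, 0 and -0.04 over all tested genes. Comparisons of AT3 and of CPT with CON share the CON libraries, and those of CPT with AT3 and with CON share the CPT libraries, so they are set side by side and not counted as separate evidence.

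**Figure D1:**
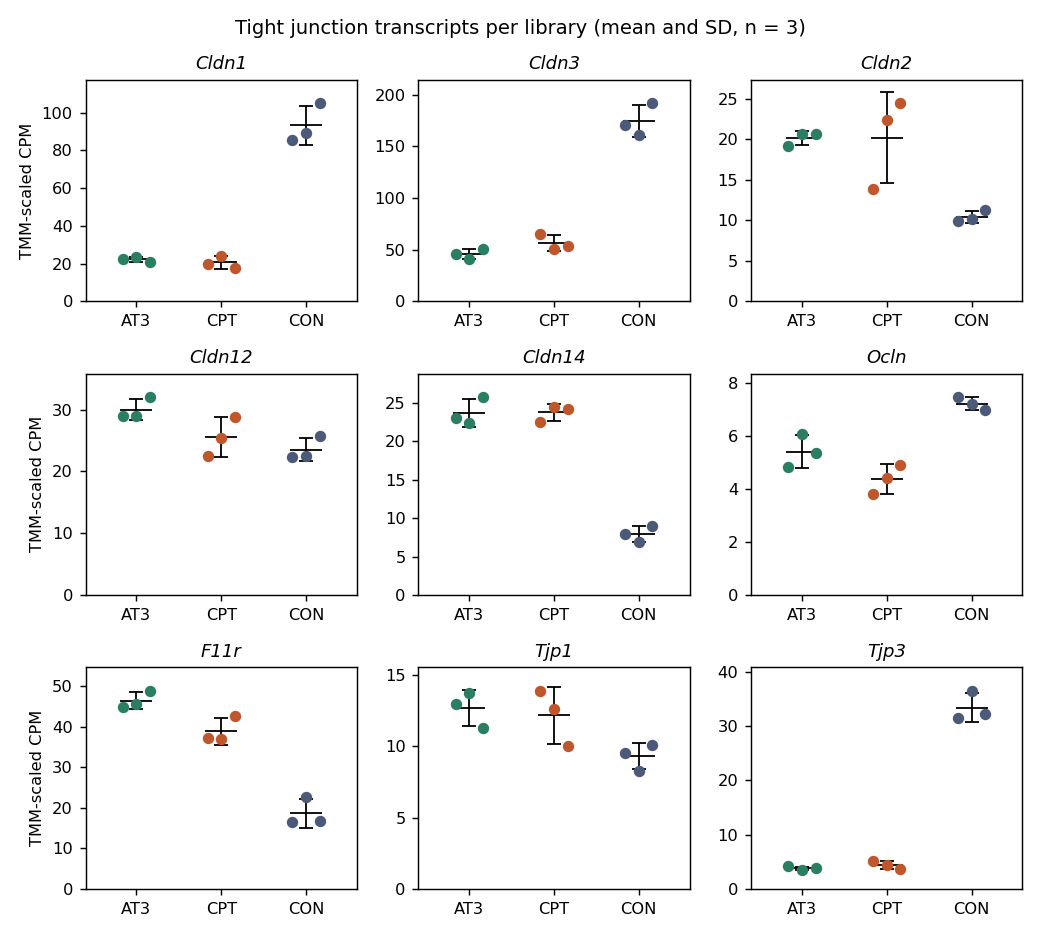
TMM-scaled CPM (linear axis from 0, a scale of its own for each gene) in every AT3, CPT and CON library, with points for libraries, a bar for the mean and whiskers for the SD of 3 libraries. Cldn1, Cldn3 and Tjp3 sit far lower in the AT3 and CPT livers than in the CON livers, and Cldn14, Cldn2 and F11r sit higher.

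Upstream sequence is shown for 5 genes that shifted in opposite directions. The sealing claudins Cldn1 and Cldn3 were lower in both injured groups, and Cldn2, Cldn14 and F11r were the 3 genes with the largest increases. The sequences are the bases just before the outermost listed start site, 5′ to 3′ on the strand of the gene, from RefSeq on GRCm38.p6: chr16:26371842-26372089 on the minus strand, chr5:134985964-134986213 on the plus strand, chrX:139800558-139800807 on the plus strand, chr16:94008838-94009087 on the minus strand and chr1:171437311-171437534 on the plus strand. Capitals mark matches, on either strand, to the GC box motif GGGCGG, to TATAAA for the TATA box motif, to the AP-1 motif TGANTCA, or to the CCAAT box, whose name spells its letters.
Cldn1 promoter: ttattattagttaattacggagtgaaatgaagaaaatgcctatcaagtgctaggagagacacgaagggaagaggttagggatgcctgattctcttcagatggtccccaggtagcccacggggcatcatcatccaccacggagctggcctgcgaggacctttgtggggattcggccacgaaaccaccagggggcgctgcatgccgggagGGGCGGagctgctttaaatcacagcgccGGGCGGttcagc
Cldn3 promoter: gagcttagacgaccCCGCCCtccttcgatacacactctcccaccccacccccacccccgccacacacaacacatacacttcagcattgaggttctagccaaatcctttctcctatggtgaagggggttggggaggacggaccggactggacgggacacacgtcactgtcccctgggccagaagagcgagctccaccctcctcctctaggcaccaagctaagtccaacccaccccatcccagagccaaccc
Cldn2 promoter: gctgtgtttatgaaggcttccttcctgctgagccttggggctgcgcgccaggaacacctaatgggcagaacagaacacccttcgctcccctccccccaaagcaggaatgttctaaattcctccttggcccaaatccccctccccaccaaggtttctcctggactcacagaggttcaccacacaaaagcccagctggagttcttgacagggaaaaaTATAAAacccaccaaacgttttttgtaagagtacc
Cldn14 promoter: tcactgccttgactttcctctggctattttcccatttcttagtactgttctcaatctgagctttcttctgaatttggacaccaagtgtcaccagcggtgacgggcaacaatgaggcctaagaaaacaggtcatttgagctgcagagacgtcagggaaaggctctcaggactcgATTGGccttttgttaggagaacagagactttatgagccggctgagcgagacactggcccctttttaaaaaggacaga
F11r promoter: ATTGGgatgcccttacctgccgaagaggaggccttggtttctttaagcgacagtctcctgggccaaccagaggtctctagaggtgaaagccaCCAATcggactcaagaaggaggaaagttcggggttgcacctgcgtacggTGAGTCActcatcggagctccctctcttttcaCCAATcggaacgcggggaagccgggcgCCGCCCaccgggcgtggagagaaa

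The 2 sealing claudins each hold a GC box, at 40 and at 12 bases before the end of the printed Cldn1 sequence and at 236 bases before the end of the Cldn3 sequence, where it lies on the minus strand. The Cldn2 sequence holds a TATA box 35 bases before its end. The Cldn14 sequence holds a CCAAT box on the minus strand, and the F11r sequence an AP-1 motif 83 bases before its end, 3 CCAAT boxes and 1 GC box. Of 32851 RefSeq promoter windows, searched over the 250 bases before the start, 32.7% hold a GC box, 12.4% a TATA box, 33.8% a CCAAT box and 6.75% the AP-1 motif. Over every listed start of the 9 genes, STAT motifs (TTCNNNGAA) were found for Cldn12 and Cldn14, a C/EBP motif (TTGCNNAA) for Cldn14, an E box (CACGTG) for Tjp3 and an NF-kB motif for none, against 7.02%, 9.56%, 6.02% and 1.41% of all windows. Those shares are per window, while Cldn12 and Cldn14 each have 3 listed starts, which gives them more windows in which to match. GC boxes were found for 6 of the 9 genes, Tjp1, Ocln, Cldn1, Cldn3, Cldn12 and F11r, which include higher and lower ones. All of these are matches of letters and no measure of binding. GC content ranged from 47.6% for Cldn14 to 60.8% for Cldn3 among the 5, and its median over all windows was 52.4%. No motif was held by all 3 of the genes that were higher.

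The sealing claudins were the 2 most abundant of the 9 transcripts in CON livers and lost most of their level in both injured groups. Cldn1 measured 22.5, 23.6 and 20.7 CPM in AT3, 19.9, 24.2 and 17.8 CPM in CPT and 85.5, 89.3 and 105 CPM in CON libraries. Every AT3 and CPT library lay far below every CON library, and the AT3 and CPT libraries overlapped. The log2 fold change was -2.18 ± 0.12 (SE) in CPT against CON (edgeR adjusted p = 7.74e-10) and -2.06 ± 0.12 in AT3 against CON (adjusted p = 1.06e-09), and that in AT3 against CPT was 0.11 (95% interval -0.15 to 0.37). On log2(TPM + 1) the decrease was smaller, with -1.44 in CPT against CON and -1.26 in AT3 against CON. The median of all genes was itself shifted there, by 0.29 and 0.32. Cldn3 measured 46.2, 40.6 and 50.4 CPM in AT3, 65.4, 50.7 and 54.0 CPM in CPT and 171, 161 and 192 CPM in CON libraries. The CON libraries again stood above all others, and the 3 AT3 libraries also stood below the 3 CPT libraries, narrowly. Cldn3 fell by 1.62 ± 0.12 on the log2 scale in CPT against CON (edgeR adjusted p = 1.34e-08) and by 1.93 ± 0.12 in AT3 against CON (adjusted p = 1.74e-09). On log2(TPM + 1) these values were -1.01 and -1.22, where the median of all genes was shifted by 0.29 and 0.32. Its log2 fold change in AT3 against CPT, -0.31 ± 0.12, had an unadjusted p of 0.0174 and did not pass the adjustment (edgeR adjusted p = 0.142).

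Cldn2, the pore-forming claudin, had the opposite direction. It measured 19.2, 20.7 and 20.6 CPM in AT3, 13.9, 22.4 and 24.5 CPM in CPT and 9.89, 10.1 and 11.3 CPM in CON libraries. All AT3 and CPT libraries lay above the CON libraries, while CPT replicate 1 was closer to CON than to the other CPT libraries and gave the group its wide spread. The level was 1.94-fold higher in CPT than in CON (log2 fold change 0.95 ± 0.16, edgeR adjusted p = 0.000128), and 1.93-fold higher in AT3 than in CON (0.95 ± 0.16, adjusted p = 0.000115). On log2(TPM + 0.1) the value in AT3 against CON was 1.60, or 1.03 less the median of all genes, which was 0.57 there. AT3 and CPT livers differed by a factor of 0.998, with a 95% interval of the log2 fold change of -0.33 to 0.33.

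Cldn14, a claudin known in mice for holding back cations in the inner ear and kidney, had the largest increase among the 9 on counts. It measured 22.9, 22.3 and 25.7 CPM in AT3, 22.5, 24.4 and 24.2 CPM in CPT and 7.98, 6.91 and 8.95 CPM in CON libraries. No injured library overlapped a CON library. The increase was 3.0-fold in CPT against CON (log2 1.59 ± 0.11, edgeR adjusted p = 1.29e-08) and 2.99-fold in AT3 against CON (log2 1.58 ± 0.11, adjusted p = 1.10e-08). On log2(TPM + 0.1) the value in AT3 against CON was 2.18, or 1.61 less the median of all genes, which was 0.57 there. AT3 against CPT gave a factor of 0.997, with a 95% interval of -0.23 to 0.22 on the log2 scale.

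Cldn12, a claudin without the PDZ-binding tail that most of its family use to bind scaffolds, varied least of the claudins. It measured 29.0, 29.0 and 32.0 CPM in AT3, 22.5, 25.4 and 28.8 CPM in CPT and 22.4, 22.5 and 25.7 CPM in CON libraries. The AT3 libraries lay above all CON libraries and, by a narrow margin, above all CPT libraries, and the CPT and CON libraries overlapped. It rose by 0.35 ± 0.11 on the log2 scale in AT3 against CON (edgeR adjusted p = 0.00973). In CPT against CON the value was 0.12 ± 0.11 (adjusted p = 0.351), and in AT3 against CPT it was 0.23 ± 0.11 (unadjusted p = 0.0452, adjusted p = 0.231). On the deposited TPM values, CPT against CON passed the threshold for Cldn12, with 0.60 on the log2(TPM + 1) scale (limma adjusted p = 0.00285), where the median of all genes was itself shifted by 0.29. In AT3 against CON it was 1.02 on log2(TPM + 0.1), where that median was 0.57.

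The claudin mixture of each library, taken per length from TPM values, shifted with these changes. Cldn3 made up 49.2% ± 2.02 of all claudin TPM in AT3, 55.1% ± 5.51 in CPT and 76.2% ± 0.763 in CON livers (SD, n = 3 each). Cldn14 made up 24.0% ± 0.469 in AT3, 22.3% ± 1.66 in CPT and 3.43% ± 0.187 in CON livers. Every share of Cldn3, Cldn1, Cldn14, Cldn12 and Cldn2 in the AT3 and CPT libraries lay outside the range of the CON libraries. Cldn1 took 8.21% ± 1.11 of claudin TPM in AT3, 6.88% ± 1.25 in CPT and 13.9% ± 0.632 in CON. Cldn12 took 9.47% ± 0.291, 7.32% ± 1.09 and 3.02% ± 0.0789 in AT3, CPT and CON, and Cldn2 took 7.99% ± 0.659, 7.30% ± 2.21 and 1.68% ± 0.0632 in the same order. Summed claudin TPM was 87.1 ± 2.43 in AT3, 90.6 ± 1.99 in CPT and 133 ± 10.96 in CON, so the shares changed within a smaller total. With 3 libraries a group, an exact permutation test of such a share cannot give a p under 0.10, and none was run.

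**Figure D2:**
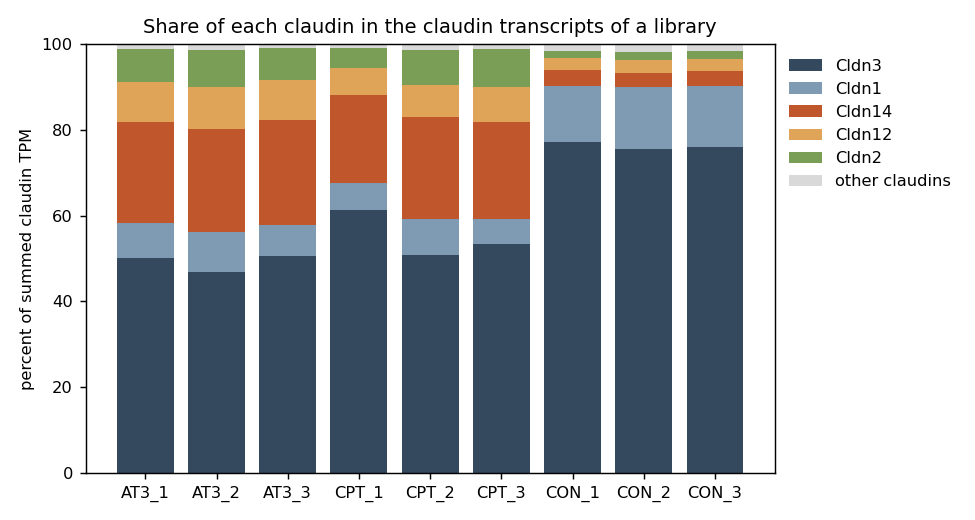
Stacked bars of the percent of summed claudin TPM held by each claudin (y axis, 0 to 100) in each of the 9 libraries (x axis, AT3, then CPT, then CON). Cldn3 fills 46.9% to 50.7% of the AT3 bars, 50.8% to 61.3% of the CPT bars and 75.6% to 77.1% of the CON bars, and the segment of Cldn14 is wider in AT3 and CPT.

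The ratio of the pore-forming Cldn2 to the sealing claudins Cldn1 and Cldn3 is independent of how libraries are scaled to each other. Cldn14 and Cldn12 are not part of it, though both held a larger mean share of claudin TPM than Cldn2 in AT3, CPT and CON. Cldn2 over Cldn1, as a ratio of TPM within a library, was 0.917, 0.945 and 1.08 in AT3, 0.751, 0.999 and 1.48 in CPT and 0.124, 0.122 and 0.116 in CON. Cldn2 therefore stood near the level of Cldn1 in the injured livers and far under it in CON livers, with no overlap. Cldn2 over Cldn3 was 0.163 ± 0.0205 in AT3, 0.136 ± 0.0501 in CPT and 0.0221 ± 0.000995 in CON. The 2 sealing claudins kept a more even ratio to each other, with Cldn3 over Cldn1 at 6.09 ± 1.07 in AT3, 8.23 ± 1.87 in CPT and 5.47 ± 0.310 in CON.

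Occludin transcripts were few. Ocln measured 4.82, 6.08 and 5.37 CPM in AT3, 3.82, 4.42 and 4.92 CPM in CPT and 7.47, 7.22 and 6.98 CPM in CON libraries. All injured libraries lay below the CON libraries, and the AT3 and CPT libraries overlapped narrowly. The log2 fold change of the counts was -0.72 ± 0.14 in CPT against CON (edgeR adjusted p = 0.000457), -0.41 ± 0.14 in AT3 against CON (adjusted p = 0.0176) and 0.31 ± 0.14 in AT3 against CPT (unadjusted p = 0.0457, adjusted p = 0.232). The call of AT3 against CON was lost without CON replicate 1 (adjusted p = 0.0513), AT3 replicate 1 (0.0987) or AT3 replicate 3 (0.0579), and with DESeq2 (0.0907). The direction for Ocln also depended on the unit. In TPM the gene measured 1.89, 2.18 and 1.90 in AT3, 0.990, 1.26 and 1.47 in CPT and 1.29, 1.34 and 0.940 in CON, which puts AT3 above both other groups and lets CPT and CON overlap. On log2(TPM + 1) the difference was 0.45 in AT3 against CON (limma adjusted p = 0.00685) and 0.03 in CPT against CON (adjusted p = 0.836), where all genes had a median of 0.32 and 0.29.

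Dividing each library's deposited count by its TPM, scaled over all genes, gives the relative transcript length that the deposited values imply. For Ocln this was 3016, 3356 and 3111 bases in AT3, 3967, 3943 and 3771 in CPT and 4116, 4577 and 4542 in CON, with no overlap between any pair of groups. The annotation lists 5 Ocln transcripts, from 390 to 4052 bases long. The implied length is a relative value, since it can pass the longest annotated transcript, as it did here. With it as an offset in the edgeR fit, an alternative chosen after seeing the data, Ocln had -0.53 in CPT against CON (adjusted p = 0.012), 0.08 in AT3 against CON (adjusted p = 0.672) and 0.61 in AT3 against CPT (adjusted p = 0.0524). So the lower Ocln in CPT than in CON held on that scale, and the difference of AT3 from CON did not.

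**Figure D3:**
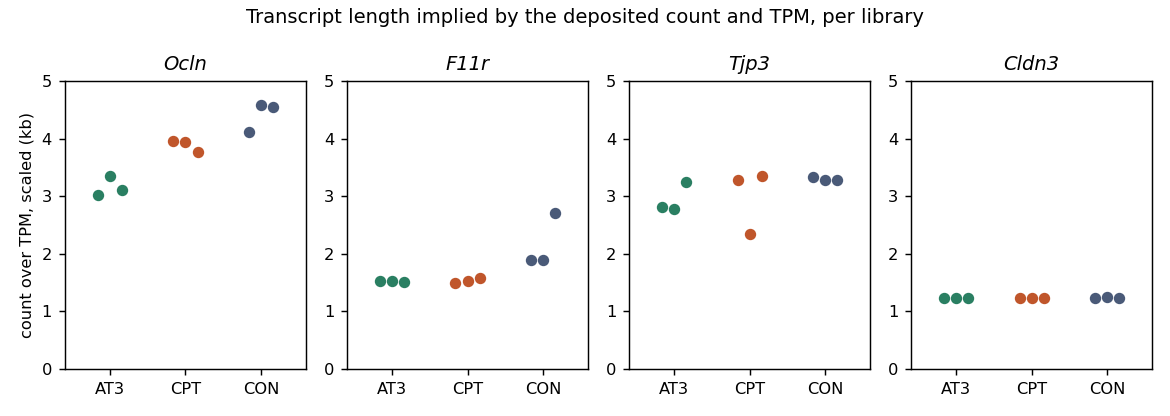
Transcript length in kilobases implied by the deposited count and TPM of each library (y axis, linear from 0) for Ocln, F11r, Tjp3 and Cldn3, with a point for each AT3, CPT and CON library. In bases, the values of Ocln fall into 3 separate ranges, 3016 to 3356 in AT3, 3771 to 3967 in CPT and 4116 to 4577 in CON, those of F11r are longest in CON, and those of Cldn3 lie between 1228 and 1245 in every library.

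F11r encodes JAM-A, an adhesion molecule of epithelia that platelets, leukocytes and endothelium carry as well. It measured 44.9, 45.5 and 48.8 CPM in AT3, 37.1, 36.8 and 42.6 CPM in CPT and 16.4, 22.8 and 16.8 CPM in CON libraries. The 3 groups did not overlap, with AT3 highest and CON lowest. F11r was 2.07-fold higher in CPT than in CON (log2 fold change 1.05 ± 0.12, edgeR adjusted p = 2.41e-06) and 2.47-fold higher in AT3 than in CON (1.31 ± 0.12, adjusted p = 1.82e-07). On TPM the increase was larger, with 1.98 in CPT against CON and 2.32 in AT3 against CON on log2(TPM + 1), and 2.13 and 2.49 on log2(TPM + 0.1). In AT3 against CPT the log2 fold change of the counts was 0.26 ± 0.12 (unadjusted p = 0.0438, adjusted p = 0.227). The length implied for F11r was 1504 to 1525 bases in AT3, 1493 to 1574 in CPT and 1883 to 2700 in CON. Its log2 fold change with the length offset was 1.5 in CPT against CON and 1.78 in AT3 against CON. The annotation lists 3 F11r transcripts, a protein-coding one of 2518 bases and retained-intron ones of 424 and 678 bases. The larger increase on TPM may thus include short transcripts that do not encode JAM-A, and the part of each transcript was not tested.

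Markers of the other cells that carry F11r did not move as one set. Platelet and megakaryocyte markers summed to 5.48 to 6.83 CPM in AT3, 4.42 to 5.84 CPM in CPT and 4.004 to 4.90 CPM in CON, with 3 of 8 tested, of which 2 were higher and 1 lower in CPT against CON. Leukocyte and Kupffer cell markers summed to 29.1 to 32.7 CPM in AT3, 29.3 to 43.8 CPM in CPT and 37.5 to 43.6 CPM in CON, with 3 of 9 tested markers higher and 4 lower in CPT against CON. Of the 3 with the highest mean level, Clec4f of Kupffer cells fell to 6.52 CPM in CPT, against 16.9 CPM in CON, and Csf1r, the receptor of macrophage colony-stimulating factor, to 4.65 CPM in CPT, against 10.8 CPM in CON. Lyz2, a lysozyme of myeloid cells, was higher, with 12.6 CPM in CPT and 5.89 CPM in CON. Endothelial markers summed to 28.4 to 36.7 CPM in AT3, 24.6 to 33.0 CPM in CPT and 124 to 127 CPM in CON. Of the 10 endothelial markers 8 were lower in CPT against CON, whereas F11r was higher. Beside each of these lists, 30% of all tested genes were called higher and 30.8% lower in CPT against CON. The part of these cells in the F11r level was not tested.

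The scaffold Tjp3 fell furthest of all 9 genes. It measured 4.13, 3.54 and 3.80 CPM in AT3, 5.12, 4.45 and 3.69 CPM in CPT and 31.5, 36.5 and 32.2 CPM in CON libraries. The CON libraries stood apart from all others, and AT3 and CPT overlapped. The level was 7.54-fold lower in CPT than in CON (log2 fold change -2.91 ± 0.13, edgeR adjusted p = 5.60e-11) and 8.73-fold lower in AT3 than in CON (-3.13 ± 0.13, adjusted p = 2.31e-11). On log2(TPM + 1) the decrease was smaller, with -1.65 in CPT against CON and -1.72 in AT3 against CON, and on log2(TPM + 0.1) it was -2.09 and -2.19. The median of all genes was shifted by 0.29 and 0.32 on the first of these scales and by 0.51 and 0.57 on the second. In AT3 against CPT, on counts, it was -0.21 (95% interval -0.51 to 0.08). The length implied for Tjp3 was 2786 to 3238 bases in AT3, 2349 to 3353 in CPT and 3277 to 3332 in CON. With the length offset its log2 fold change was -2.73 in CPT against CON and -2.94 in AT3 against CON. In GENCODE M21, Tjp3 (chr10:81273207-81291581, minus strand, GRCm38) overlaps Apba3, a neighbour on the other strand, by 40 bases, and no label says that counting used strand. Apba3 averaged 20.9 CPM in CPT and 24.5 CPM in CON, a log2 fold change of -0.22 (edgeR adjusted p = 0.0600).

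Tjp1, the scaffold ZO-1, went the other way by a small amount. It measured 13.0, 13.7 and 11.2 CPM in AT3, 13.9, 12.6 and 9.996 CPM in CPT and 9.50, 8.28 and 10.1 CPM in CON libraries. CPT overlapped CON at its lowest library, while all AT3 libraries lay above CON. The log2 fold change was 0.39 ± 0.14 in CPT against CON (edgeR adjusted p = 0.0207) and 0.45 ± 0.14 in AT3 against CON (adjusted p = 0.00866), and 0.06 ± 0.13 in AT3 against CPT. The call in CPT against CON was lost without CON replicate 2 (log2 fold change 0.31, adjusted p = 0.0888) and without CPT replicate 2 (0.38, adjusted p = 0.0511). As TPM within a library, Tjp3 over Tjp1 was 0.892, 0.732 and 0.849 in AT3, 0.866, 1.15 and 0.844 in CPT and 8.08, 9.73 and 7.91 in CON. From counts per kilobase, the value of CPT replicate 2 was 0.860. The 2 scaffolds were thus at a like level per length in the injured livers, whereas Tjp3 stood far above Tjp1 in CON livers.

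Tjp1 is also by far the longest of the 9 genes, spanning 231.6 kb (chr7:65296165-65527781, minus strand), while Cldn3 spans 1.3 kb (chr5:134986214-134987472, plus strand). Of 1459 tested genes that span at least 100 kb, 50.3% were lower and 15.7% higher in CPT against CON, with a median log2 fold change of -0.47. Tjp1 was among those higher. The other spans run from 10.6 kb for Cldn2 and 15.2 kb for Cldn1 through 18.4 kb for Tjp3, 25.4 kb for Cldn12, 27.1 kb for F11r and 56.2 kb for Ocln to 89.8 kb for Cldn14.

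**Figure D4:**
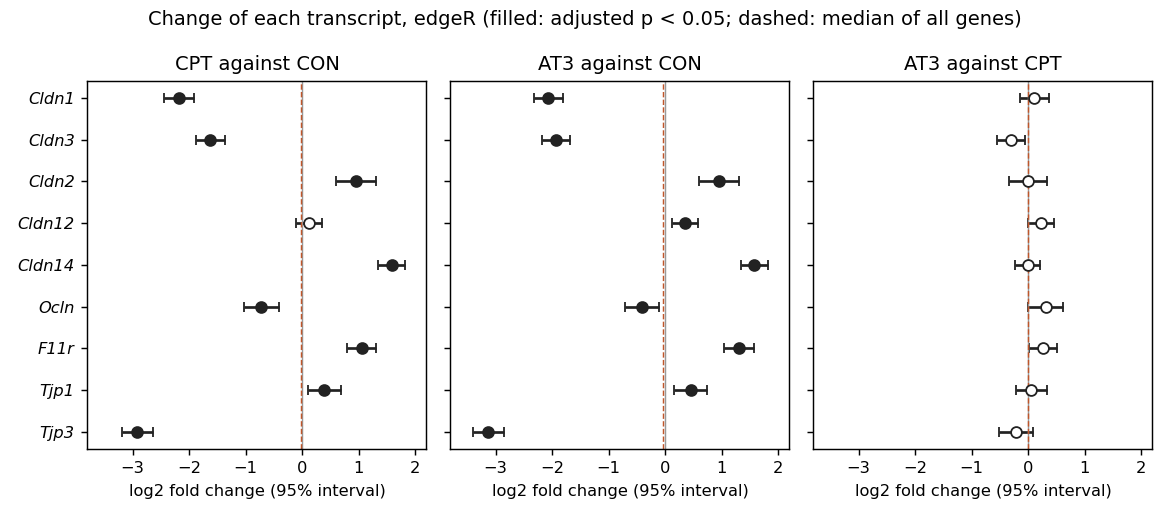
Log2 fold change of each gene from the edgeR fit (x axis) with its 95% interval, for CPT against CON, AT3 against CON and AT3 against CPT. Filled points have an adjusted p under 0.05, and the dashed line is the median of all tested genes. Intervals of Tjp3, Cldn1 and Cldn3 lie far below 0 in both comparisons with CON, those of Cldn14, F11r and Cldn2 lie above 0, and all values of AT3 against CPT lie between -0.31 and 0.31.

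Against CPT, AT3 livers showed small differences. Cldn3 was lower, and F11r and Cldn12 higher, in all 3 AT3 libraries than in all 3 CPT libraries, 3 genes in all. Of all tested genes 27% had no overlap of these libraries. Ocln, Cldn3, Cldn12 and F11r had an unadjusted p under 0.05, 4 genes in all, and no adjusted p passed the threshold. Such an unadjusted p was common, with 2833 of the 13686 tested genes. DESeq2 called 0 of the 9 as well, with 2 at an unadjusted p under 0.05, beside 2430 of 25394 genes. For Cldn1, Cldn2, Cldn14, Tjp1 and Tjp3 the values of AT3 and CPT overlapped, and the intervals given above bound a difference without showing that the groups were alike.

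The order of levels per length differed between injured and CON livers. In AT3, mean TPM ran from Cldn3 (42.9) through F11r (35.5), Cldn14 (20.9), Cldn12 (8.25), Cldn1 (7.14), Cldn2 (6.95), Ocln (1.99) and Tjp1 (1.85) to Tjp3 (1.52). In CPT the order was Cldn3 (49.9), F11r (27.8), Cldn14 (20.2), Cldn12 (6.65), Cldn2 (6.64), Cldn1 (6.23), Tjp1 (1.73), Tjp3 (1.66) and Ocln (1.24). In CON it was Cldn3 (101), Cldn1 (18.6), Tjp3 (7.39), F11r (6.75), Cldn14 (4.55), Cldn12 (4.02), Cldn2 (2.24), Ocln (1.19) and Tjp1 (0.853). Cldn3 led in every group. Tjp3 followed Cldn3 and Cldn1 in CON, and in AT3 and CPT it stood among the last 3 genes, whose libraries overlapped. Neighbours in the order whose libraries overlapped were Cldn1 and Cldn2, then Ocln, Tjp1 and Tjp3, in AT3. In CPT they were Cldn12, Cldn2 and Cldn1, and Tjp1, Tjp3 and Ocln. In CON they were Tjp3 and F11r, F11r and Cldn14, Cldn14 and Cldn12, and Ocln and Tjp1.

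Across the 9 libraries the levels of Tjp3, Cldn1 and Cldn3 ran together, with Pearson's r of log2 CPM from 0.957 to 0.985 between pairs. Those of Cldn2, Cldn14 and F11r did so with r from 0.883 to 0.929, and r between the 2 sets was -0.990 to -0.880. These values describe 9 libraries that fall into groups, so the difference between CON and the injured groups sets most of them, and no p is given. Among all tested genes the pattern most like that of Cldn14 was that of Gjb2 (r = 0.996), the gap junction protein connexin 26, then those of Fgl1 and Lrg1, both secreted by hepatocytes. For Tjp3 the nearest genes with a symbol were Serpina6 (r = 0.998), the corticosteroid-binding globulin, and Mup3, a major urinary protein. Cldn3 was nearest to Ptms, Gamt and Maz, Cldn1 to Adh6-ps1, Kyat1 and Car8, Cldn2 to Lgmn, Ptpmt1 and Saysd1, and F11r to Nudt21, Ptcd2 and Sdhc. The nearest patterns to Ocln were those of Cnpy4, Cdc42ep2 and Zswim4, to Cldn12 those of Pdap1, Arpc1b and Mettl2, and to Tjp1 those of Wsb1, Secisbp2 and Ptpn12.

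A wider list held 54 other tight junction genes. Of its 33 tested members, 8 were higher, 14 lower and 11 not called in CPT against CON, with a median log2 fold change of -0.15, and 9 were higher, 18 lower and 6 not called in AT3 against CON, with a median of -0.29. Over all tested genes the shares were 30% higher and 30.8% lower in CPT against CON and 31.5% and 32.9% in AT3 against CON. None of the 33 was called in AT3 against CPT, beside 4.68% of all tested genes. An unadjusted p under 0.05 was found for 0 of the 33, beside 2833 of the 13686 tested genes. On log2(TPM + 1), where the medians of all genes shift upward, the counts were 15 higher and 7 lower in both comparisons with CON, beside 6631 higher and 1604 lower of all genes in CPT against CON and 7017 and 1698 in AT3 against CON, so the balance of directions in this list rests on the unit. Of the 21 untested genes 18 were claudins, none with more than 12 counts in a library and 9 with 0 counts in all libraries, so that the claudins of the lists that passed the filter were the 5 described above and Cldn5.

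Among the list, Marveld3, a MARVEL-domain protein related to occludin, averaged 4.74 ± 0.572 CPM in AT3, 4.71 ± 0.784 CPM in CPT and 0.509 ± 0.153 CPM in CON (SD, n = 3 each), a log2 fold change of 3.16 ± 0.25 in CPT against CON (edgeR adjusted p = 4.17e-08). Marveld2 (tricellulin), which seals the points where 3 cells meet, was also higher, with 0.62 in CPT against CON. Its value was chosen for mention after it was seen. Ocln was thus lower by counts while both of its relatives were higher. Magi1, a scaffold with PDZ domains, averaged 2.81 CPM in AT3, 2.39 CPM in CPT and 13.8 CPM in CON (-2.53 in CPT against CON, edgeR adjusted p = 5.49e-10). Amotl2 and Amotl1, angiomotin-like proteins that bind junction scaffolds, fell by 1.46 and 1.76 on the log2 scale in CPT against CON. Pard3b, a polarity protein related to Pard3, had 0 or 1 counts in every AT3 and CPT library and 34 to 42 counts in the CON libraries.

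Cldn5, the claudin of endothelium, averaged 0.327 CPM in AT3, 0.349 CPM in CPT and 3.59 CPM in CON, with a log2 fold change of -3.35 in CPT against CON (edgeR adjusted p = 4.02e-07). It moved beside the endothelial markers, whose median log2 fold change in CPT against CON was -2.35, and among which Eng had 6.75 CPM in CPT and 44.4 CPM in CON. Stellate cell markers summed to 46.9 to 60.8 CPM in AT3, 68.7 to 77.8 CPM in CPT and 366 to 432 CPM in CON. Of these markers 10 of 10 were lower in both comparisons with CON. Over all tested genes 30.8% were lower in CPT against CON and 32.9% in AT3 against CON. Cholangiocytes, which share Cldn1 and Cldn3 with hepatocytes, had markers that summed to 77.8 to 87.1 CPM in AT3, 70.7 to 79.7 CPM in CPT and 79.9 to 85.2 CPM in CON, with Cftr at 0 counts in all 9 libraries. Of 9 tested cholangiocyte markers 4 were lower and 0 higher in CPT against CON, beside 30.8% and 30% of all tested genes. Among the 4 was Krt19, at 0.557 CPM in CPT and 1.44 CPM in CON. The part of these cell types in the levels of Cldn1, Cldn3 and Cldn5 was not tested. The 10 markers of intestinal epithelium, another tissue rich in claudins, summed to 137 to 151 CPM in AT3, 189 to 210 CPM in CPT and 65.9 to 71.5 CPM in CON. Of the 2 that were tested, Fabp2, a fatty acid-binding protein, held most of that sum, with 130 CPM in AT3, 180 CPM in CPT and 49.9 CPM in CON. It was called higher in both comparisons with CON and lower in AT3 against CPT, while Lgals4 was not called. Lct, Sis, Muc2 and Alpi, defining markers of that tissue, were at 0 counts in all libraries.

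Cldn2 is known in rat liver to be graded along the lobule, so markers of hepatocyte zones are given beside it. Periportal markers had 6 of 12 higher and 6 lower in CPT against CON, and pericentral markers 2 of 12 higher and 5 lower. The medians of the log2 fold change were -0.07 and -0.04, near that of all genes. In that comparison 30% of all tested genes were called higher and 30.8% lower. In AT3 against CON, 6 periportal markers were higher and 4 lower, and 2 pericentral markers were higher and 5 lower. Over all tested genes 31.5% were higher and 32.9% lower there. The medians of the periportal and pericentral markers in AT3 against CON were 0.38 and -0.06, beside -0.04 over all tested genes. Their sums were 4425 to 4995 CPM in AT3, 4185 to 5588 CPM in CPT and 4900 to 5785 CPM in CON for the pericentral list, and 8082 to 8570 CPM in AT3, 5990 to 7276 CPM in CPT and 3652 to 4201 CPM in CON for the periportal list. Cldn2 was higher in every injured library than in CON. The pericentral sums of AT3 and of CPT overlapped those of CON, whereas the periportal sums of AT3 and CPT all lay above those of CON. A sum follows its most abundant markers: the periportal sum was higher in CPT while 6 of its 12 markers were lower. Neither sum tells in which zone Cldn2 was higher. The part of zonation in the claudin levels was not tested.

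The other junctions of the hepatocyte were called about as often as all genes. Of 20 adherens junction, desmosome and gap junction genes, 6 were higher, 7 lower and 7 not called in CPT against CON, and 7 higher and 6 lower in AT3 against CON. In AT3 against CPT 0 were called, beside 4.68% of all tested genes. There, 5 of the 20 had an unadjusted p under 0.05, beside 2833 of the 13686 tested genes. The all-gene shares were 30% higher and 30.8% lower in CPT against CON and 31.5% and 32.9% in AT3 against CON. The median log2 fold change of the 20 genes was -0.14 in CPT against CON, -0.11 in AT3 against CON and 0.14 in AT3 against CPT. The 2 connexins of hepatocyte gap junctions moved apart: Gjb2 averaged 283 ± 16.7 CPM in AT3, 281 ± 24.6 CPM in CPT and 122 ± 10.4 CPM in CON, and Gjb1 averaged 229 ± 15.8 CPM in AT3, 232 ± 26.7 CPM in CPT and 494 ± 37.9 CPM in CON. Their log2 fold changes in CPT against CON were 1.21 ± 0.10 and -1.09 ± 0.11 (edgeR adjusted p = 7.39e-08 and 4.0e-07). Nectin1, an adhesion molecule of adherens junctions, averaged 30.6 CPM in AT3, 25.4 CPM in CPT and 53.7 CPM in CON, and periplakin (Ppl), a desmosomal linker, 4.99 CPM in AT3, 4.39 CPM in CPT and 0.865 CPM in CON. The smallest p in AT3 against CPT was that of p120 catenin (Ctnnd1), which stabilises cadherins, with 29.8 CPM in AT3 and 23.4 CPM in CPT (log2 fold change 0.35 ± 0.10, adjusted p = 0.0641).

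Of 28 regulators of junctions and of the actomyosin belt, 7 were higher, 10 lower and 11 not called in CPT against CON, 8 higher and 12 lower in AT3 against CON, and 1 higher and 1 lower in AT3 against CPT. These counts were near the all-gene shares, which were 30% and 30.8%, 31.5% and 32.9%, and 2.46% and 2.22% in the same comparisons. Their median log2 fold change was -0.03, -0.05 and -0.08 in these 3 comparisons. Myh9, the heavy chain of non-muscle myosin, averaged 52.1 CPM in AT3, 57.8 CPM in CPT and 25.3 CPM in CON (1.19 ± 0.10 in CPT against CON, edgeR adjusted p = 5.00e-08), and its light chain Myl12a rose by 1.14 ± 0.11. Radixin (Rdx), which ties the canalicular membrane to actin, averaged 41.4 CPM in AT3, 47.7 CPM in CPT and 133 CPM in CON (-1.48 ± 0.11). The 2 genes called in AT3 against CPT were Prkaa2, a catalytic subunit of AMP-activated kinase, and Myl9, a myosin light chain of contractile cells. Prkaa2 averaged 17.2 CPM in AT3 and 13.4 CPM in CPT (0.37 ± 0.10, adjusted p = 0.0480), with 19.6 CPM in CON. Myl9 averaged 0.375 CPM in AT3 and 0.839 CPM in CPT (-1.14 ± 0.27, adjusted p = 0.0264), with 7.97 CPM in CON, and moved beside the stellate cell markers, of which 2 of 10 were lower in AT3 against CPT. The part of stellate cells in the Myl9 level was not tested.

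**Figure D5:**
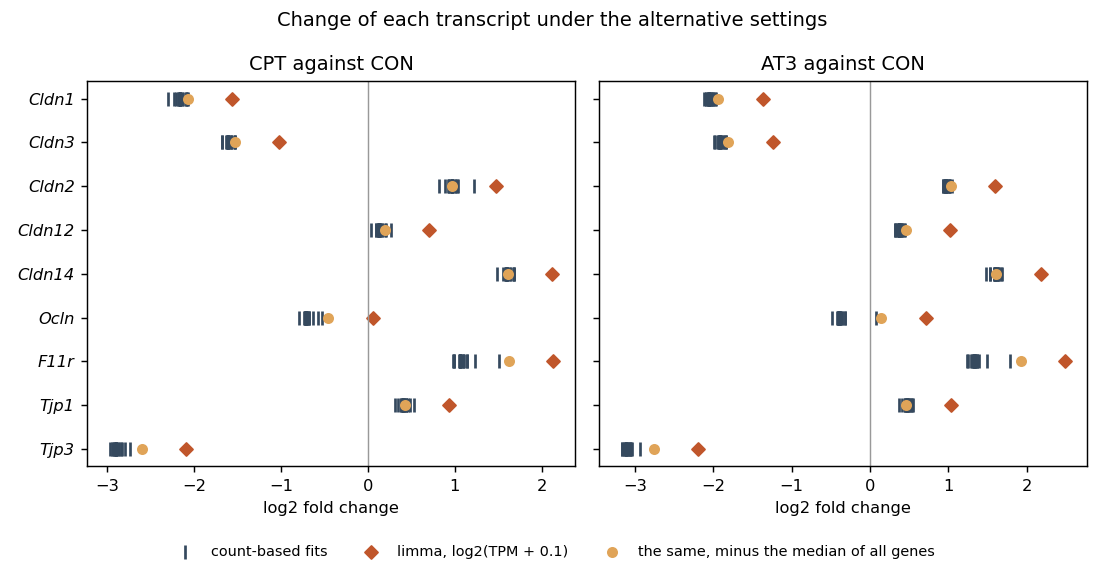
Log2 fold change of each gene (x axis) in CPT against CON and in AT3 against CON, with a tick for each fit to counts, a diamond for log2(TPM + 0.1) and a circle for that value less the median of all genes. Marks of Tjp3, Cldn1 and Cldn3 stay below 0 and those of Cldn14, F11r, Cldn2, Cldn12 and Tjp1 above 0 in every setting plotted. The diamond of Ocln is above 0 in both comparisons. Its circle is below 0 in CPT against CON (-0.45) and above 0 in AT3 against CON (0.14). Its tick with the length offset is above 0 in AT3 against CON.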

How the data were processed

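Bulk liver RNA of male BALB/c mice was measured in 9 libraries, 3 each of AT3, CPT and CON. The authors deposited estimated counts per gene, in which 7.96% to 9.55% of the values of a library were not whole, and TPM values scaled to transcript length and library total. The length that the TPM values imply differed between libraries, among the 9 genes most for Ocln, F11r and Tjp3. Aligner and counter are not named in the labels. The submitters' processing notes list 3 build names (GRCm38, GRCm39, mm10) without saying which was used, and strand use is not stated. The table holds 57010 genes, and 0 columns of other samples were found.

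The estimated counts were rounded and tested with edgeR 4.0.16 (R 4.3.3): TMM scaling, its filter on low counts, a quasi-likelihood model over the 9 libraries with group as its factor, and p-values adjusted by Benjamini and Hochberg across 13686 genes, called at 0.05. The fit was tested on simulated data in which few genes changed, which does not cover shifts as wide as those against CON. CPM use TMM-scaled library sizes. Alternatives used DESeq2 1.42.0 and limma 3.58.1 on log2 TPM with a pseudocount of 1 or 0.1, other scalings and filters, a replicate block, and each library left out. Coordinates come from GENCODE M21 on GRCm38. Promoter windows come from RefSeq on GRCm38.p6, cut at the annotated gene.

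The genes, lists and tests were chosen with earlier results of these data known. Named genes are all 9 genes, the genes of smallest p in each comparison from the other tight junction (up to 6), other junction (up to 4) and regulator (up to 4) lists, up to 3 markers of highest level and any marker at 0, and the 3 genes of highest correlation with each of the 9. The text prints part of these. Intervals of counts cover the spread between libraries, and no replicate pair agreed within counting noise.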

Additional observations from a re-analysis of the deposited data

How the results depend on the processing

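Of 486 recomputed log2 fold changes of the 9 genes, 456 kept direction and side of the threshold, 21 reversed, 7 lost and 2 gained the threshold. Of the 324 against CON, 319 kept direction and the others were all of Ocln. Ocln in CPT against CON had 0.032 on log2(TPM + 1) and 0.054 on log2(TPM + 0.1), or -0.26 and -0.45 less the median of all genes. In AT3 against CON it had 0.45 and 0.71 on these scales and 0.081 with the length offset, and lost its call with no filter on low counts (-0.32, adjusted p = 0.108). The cause was not tested. The other reversals were in AT3 against CPT, where nothing was called. Cldn2 had 0.0017 with DESeq2, 0.098 and 0.12 on the TPM scales and 0.024 with the replicate block, and Cldn14 had 0.0020 with DESeq2 and 0.051 and 0.053 on the TPM scales. With each library left out, Cldn2 had -0.21 to 0.15, Cldn14 -0.065 to 0.038 and Tjp1 -0.059 to 0.16.

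Calls among the 9 genes stayed at 3 to 4 higher and 4 lower in CPT against CON and at 5 higher and 3 to 4 lower in AT3 against CON with each library left out, and at 0 in AT3 against CPT. On TPM, with pseudocounts of 1 and 0.1, the wider tight junction list had 15 and 15 higher and 7 and 6 lower in CPT against CON, and 15 and 15 higher and 7 and 7 lower in AT3 against CON. Over all genes these scales gave 6631 and 6665 higher and 1604 and 1582 lower in CPT against CON (4107 and 4219 on counts), 7017 and 7037 higher and 1698 and 1679 lower in AT3 against CON (4312 and 4501 on counts), and 29 and 20 higher and 16 and 12 lower in AT3 against CPT (337 and 304 on counts). With no filter, AT3 against CPT had 617 higher and 557 lower. With each library left out it had 93 to 766 higher and 69 to 550 lower, the extremes without AT3 replicates 1 and 2 and without CPT replicate 3, so its background share rests on single libraries.

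The replicate block left the counts of calls among the 9 genes as they were, and gave 4047 higher and 4107 lower over all genes in CPT against CON, 4247 and 4401 in AT3 against CON, and 242 and 209 in AT3 against CPT. Deviations of libraries with the same number correlated at -0.0378 to 0.0762, so the numbers were not taken to pair libraries. Of 30 group means of claudin ratios and shares and of Tjp3 over Tjp1, 12 moved by more than the spread between libraries when taken from counts per kilobase. Limits are 3 libraries a group, bulk tissue, no statement of strand and the unit used for Ocln. That unit decides the direction of Ocln in AT3 against CON and, in CPT against CON, whether a decrease was seen.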
